A study of Rattus norvegicus with 8 samples.

Results

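The metabotropic glutamate receptors are the 7 genes of this family read here, Grm2 to Grm8, measured in the dentate gyrus (DG) of rats after kainic acid status epilepticus (SE), with or without estradiol replacement. They were found as the non-control spots whose gene name in the scanner files equals one of these symbols, which gave 21 spots of 12 probes among 43379 spots, 41012 probes and 35199 gene names. All 7 genes had at least 1 spot that could be quantified in every rat, as did 21332 names in all. The remaining spot, of a second Grm6 probe, could not.

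All 8 animals were adult female Sprague-Dawley rats that had been ovariectomized (OVX) 1 week before hormone replacement began, and all underwent SE. COS denotes 4 rats given oil and CES denotes 4 rats given estradiol, and each of the 8 arrayed RNA samples is 1 rat. The sample records state 4 doses of 2 μg estradiol given 24 h apart, 2 ahead of SE and 2 after it, 16 mg/kg of intraperitoneal kainic acid, with pentobarbital given at 5 h to stop the seizures. The study's own methods place all the injections before SE, name diazepam and a different dose of kainic acid, and give more than 1 time of tissue collection, so these details are not settled by the sources. The non-SE groups (CON and CEN) are not used here. Every comparison is therefore between seizured rats with and without estradiol, and none shows what SE itself did.

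Each of 4 arrays on 1 slide carried a pair of rats of the same group, 1 labelled with Cy3 (replicates 1 and 3) and 1 with Cy5 (replicates 2 and 4). The dye is thus balanced between the groups, while each array holds 1 group. A level is the log2 of the background-subtracted signal over the median of its channel, so 0 is the channel median and a difference of 1 is a doubling. Spots with a foreground at least 2 times background made up 74.6% to 88.9% of spots in COS and 70.7% to 81.5% in CES. The median difference of all genes between CES and COS was -0.25 under this scaling and 0.04 to 0.15 under scalings that fit the arrays to one another, so differences are also given relative to that median. Of the defining markers of granule cells, the principal cells of this tissue, Calb1, C1ql2, Dsp, Tdo2 and Neurod1 were quantified, while the probes of Prox1 and Lct were well above background in 0 of 8 rats. Summed markers of choroid plexus, which lies beside the hippocampus, ran from 3.71 to 9.27 in COS and from 4.02 to 7.60 in CES, the widest range among the 9 marker lists. In tissue RNA, fewer cells of a type and less RNA per cell cannot be told apart.

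Metabotropic glutamate receptors are G protein-coupled receptors that tune, rather than carry, fast excitatory transmission. Group I receptors, of which Grm5 is read here, couple to Gq and phospholipase C, sit mostly around the postsynaptic density and release calcium from internal stores. Group II (Grm2 and Grm3) and group III (Grm4, Grm6, Grm7 and Grm8) couple to Gi/o, lower cyclic AMP, and in most neurons act at presynaptic terminals to hold back glutamate release. In the dentate gyrus, Grm2 is known from granule cells and their mossy fibers, Grm3 from astrocytes as well as neurons, Grm7 from release sites of presynaptic terminals, and Grm8 from the perforant path that enters from the entorhinal cortex. Grm6 is best known from ON bipolar cells of the retina, where it receives the signal of photoreceptors.

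The probes set which part of a receptor message is read, and the 2 probes of Grm7 and of Grm8 gave different values, so the 60-base probe sequences that the findings turn on are printed here, 5′ to 3′, as the scanner files hold them. Grm7b and Grm8b stand for the probes that the files describe as splice forms of those receptors. Capitals mark the longest run that the 2 Grm8 probes share, and the other probes are in lower case throughout.
Grm3: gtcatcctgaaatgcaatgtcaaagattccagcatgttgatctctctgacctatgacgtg
Grm5: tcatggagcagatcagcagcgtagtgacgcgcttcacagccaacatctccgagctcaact
Grm5 (spliced): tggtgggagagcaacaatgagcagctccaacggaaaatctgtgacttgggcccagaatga
Grm7: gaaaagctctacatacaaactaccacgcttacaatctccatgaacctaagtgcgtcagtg
Grm7b: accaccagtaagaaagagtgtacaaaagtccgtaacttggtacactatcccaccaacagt
Grm8: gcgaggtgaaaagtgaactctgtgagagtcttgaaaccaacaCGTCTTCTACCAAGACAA
Grm8b: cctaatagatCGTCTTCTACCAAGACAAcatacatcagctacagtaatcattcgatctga
The files place these probes on rn4, the rat build they use, and no gene annotation of that build was used here. The spliced Grm5 probe lies at chr1:144461593-144476430, a span of 14838 bases for 60 bases of probe, so it crosses at least 1 intron. The Grm7 probe (chr4:147088377-147201215) spans 112839 bases and likewise crosses a splice junction, while the Grm7b probe (chr4:147206694-147206753) lies on 1 unbroken stretch downstream of it. The Grm8 probe (chr4:53976813-53983310) and the Grm8b probe (chr4:53976781-53983223) are on the minus strand and share a run of 18 bases. In the Grm8b probe that run opens the last 50 bases, which leaves 10 bases before it, so a transcript that continues through this exon can pair with much of the Grm8b probe whether or not it carries the splice insertion. How the probes divide the splice forms was not tested. No other pair of the 12 probes shared a run of more than 7 bases.

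In the DG of estradiol-replaced rats, 3 of the 7 receptors were higher than in oil rats, namely Grm3, Grm5 and Grm6, and none was called lower. The fit over all genes called 5.80% of genes higher (1238) and 28.3% lower (6038) in CES, and this split depends on the scaling: loess, quantile, scaling on the spots that all rats share and the deposited table gave 3078 to 3348 higher and 1718 to 2250 lower. Grm2, Grm4, Grm7 and Grm8 did not pass the test, although Grm4 and Grm7 were lower at an unadjusted limma p of 0.0323 and 0.0180. The median difference of the 7 receptors was 0.20, against -0.25 over all genes tested. Calls come from two-sided limma tests that fit the dye and let rats of an array correlate, at a Benjamini-Hochberg adjusted p under 0.05 over all genes.

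**Figure D1:**
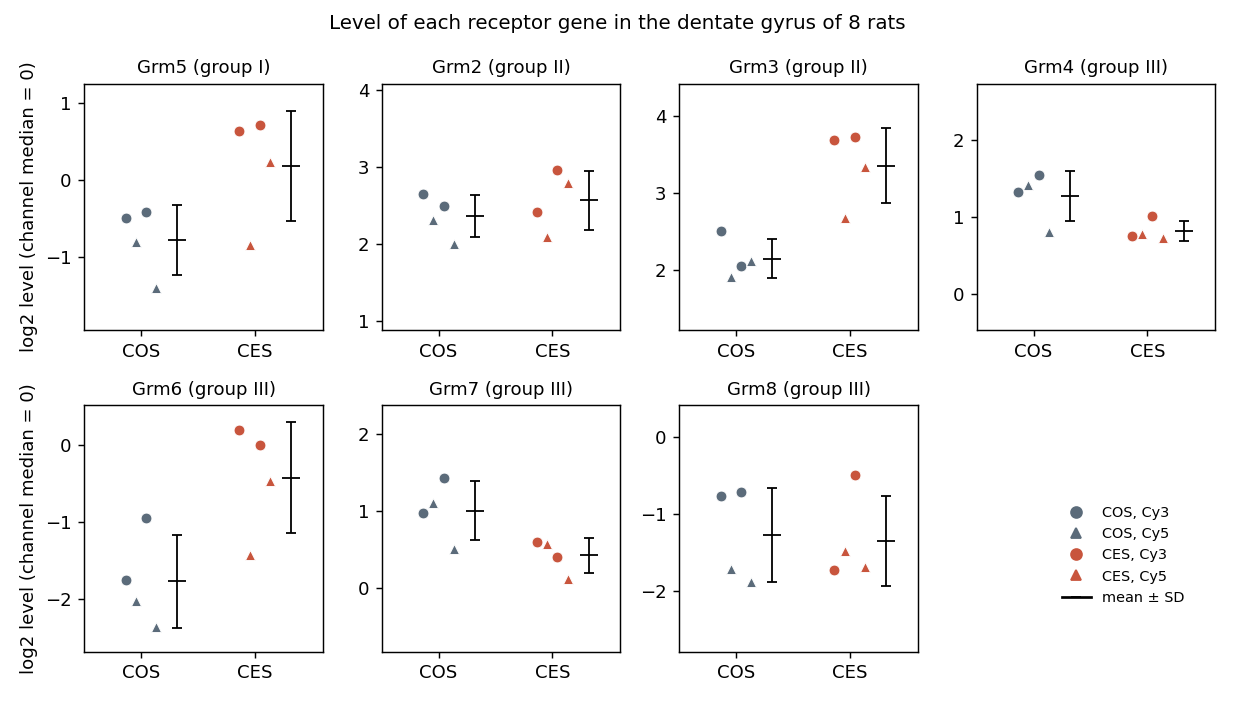
Each panel plots the log2 level of 1 receptor gene (y axis, channel median at 0) in the 4 COS and the 4 CES rats, with circles for Cy3, triangles for Cy5 and the mean with its SD beside them, and every panel spans the same number of log2 units. The 4 CES rats lie above all COS rats for Grm3, while 1 CES rat (replicate 2) sits among the COS rats for Grm5 and Grm6.

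Grm5, the group I receptor and a major postsynaptic partner of NMDA receptors, stood at log2 levels of -0.49, -0.81, -0.42 and -1.40 in COS replicates 1 to 4 and of 0.64, -0.85, 0.71 and 0.23 in CES replicates 1 to 4. In 3 of 4 CES rats it was above every COS rat, and CES replicate 2 lay within the COS range. The mean went from -0.78 ± 0.45 for oil to 0.18 ± 0.72 for estradiol (SD, n = 4 each), a 1.95-fold higher level in CES (difference 0.96, SE 0.25, limma adjusted p = 0.0164). Within the dyes the difference was 1.13 for Cy3 and 0.80 for Cy5. The signal was dim, and it was well above background in all rats other than COS replicate 3. Leaving out COS replicate 1, 3 or 4 or CES replicate 1 took the limma adjusted p to 0.0563, 0.0885, 0.0629 and 0.0685, with differences of 0.88 to 0.96. In turn, normexp background correction gave a difference of 0.61 (adjusted p = 0.441), and with no filter on valid spots the adjusted p was 0.0643.

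Both Grm5 probes gave the same size of difference. The probe printed 10 times on the array (chr1:144476829-144476888) differed by 0.96 (SE 0.25) and the spliced probe by 0.95 (SE 0.25). In a fit of each probe on its own, both were called higher (limma adjusted p = 0.0160 and 0.0182), where 5.48% of 25698 probes were called higher and 29.0% lower. The log2 ratio of the 2 probes within a rat moved by 0.01 between the groups (exact permutation p = 0.971, adjusted over the 4 receptors with 2 quantified probes 0.971). The spread of that ratio was 0.11 in COS and 0.15 in CES (SD, n = 4).

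Among the group II receptors, Grm3 rose and Grm2 did not pass the test. Grm3, a receptor that in brain also marks astrocytes, stood at 2.51, 1.91, 2.06 and 2.12 in COS replicates 1 to 4 and at 3.69, 2.68, 3.74 and 3.34 in CES replicates 1 to 4. Every CES rat was above every COS rat. Values did not overlap between the groups for 21.4% of all genes, in either direction. From oil to estradiol the mean went from 2.15 ± 0.25 to 3.36 ± 0.49 (SD, n = 4 each), a 2.32-fold higher level (difference 1.21, SE 0.20, 95% interval 0.75 to 1.67, limma adjusted p = 0.00457). The difference was 1.43 within Cy3 and 0.99 within Cy5. It was larger than the difference of 98.8% of genes and stayed called under every alternative other than the unequal-variance test of the study's methods (adjusted p = 0.0863).

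Both Grm3 probes showed the rise. The probe printed above (chr4:20961612-20961671) went from 1.91 ± 0.22 in COS to 3.04 ± 0.36 in CES (SD, n = 4), with no overlap, and the other (chr4:22117749-22117808) from 2.35 ± 0.29 to 3.61 ± 0.61. At that other probe the groups overlapped narrowly, CES replicate 2 (2.74) lying just below COS replicate 1 (2.77). Each was called by limma (adjusted p = 0.00407 and 0.00527), with a difference of 1.13 for the former and 1.26 for the latter, and the former missed the threshold under normexp (adjusted p = 0.0609). Their ratio within a rat moved by 0.13 (exact permutation p = 0.486, adjusted 0.648), less than its SD of 0.35 in CES. The files place the 2 probes 1156137 bases apart on rn4, although both were designed on the same RefSeq transcript, while the Grm3 gene spans 281504 bases in the GRCr8 annotation of RefSeq.

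Some astrocyte markers moved with Grm3. Of 8 markers, 4 were called higher (Gjb6, Gja1, Aldh1l1 and Aldoc, by 2.27, 1.27, 1.23 and 0.92) and 0 lower. Of all genes 5.80% were called higher and 28.3% lower. The median difference of the list was 0.62 against -0.25 for all genes. The list did not move as one: Slc1a3, a glial glutamate transporter, and Aqp4, the astrocyte water channel, differed by -0.07 and 0.04. Slc1a2 differed by 0.31 (limma adjusted p = 0.175) and Gfap, the astrocyte filament, by -1.19 (limma adjusted p = 0.0620). The summed marker level ran from 7.84 to 8.07 in COS and from 7.83 to 8.59 in CES. The part of astrocytes in the Grm3 difference was not tested.

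Grm2, the group II receptor known from mossy fiber terminals, differed by less than the spread between rats. It read 2.65, 2.30, 2.49 and 2.00 in COS replicates 1 to 4 and 2.41, 2.09, 2.96 and 2.79 in CES replicates 1 to 4, from its single probe at chr8:111838413-111838472. The groups overlapped through most of their range, with a difference of 0.20 (SE 0.21, 95% interval -0.26 to 0.67, limma adjusted p = 0.482). Set against the median over all genes the difference was 0.46. The difference itself was -0.01 without CES replicate 4. It was 0.52 to 0.60 under loess, quantiles, scaling on the spots that all rats share and in the deposited table (limma adjusted p = 0.0557 to 0.0785). The ratio of Grm3 to Grm2 within a rat, from which a constant factor per channel cancels, was higher by 1.01 in CES with no overlap (exact permutation p = 0.0286, the smallest that 4 against 4 rats allow, and 0.0667 adjusted over the 21 pairs of receptors).

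Of the 4 group III receptors, Grm6 alone passed the test. Grm6, the receptor of retinal ON bipolar cells, was called higher on the strength of 1 probe (chr10:36436418-36436477). Its levels were -1.75, -2.03, -0.94 and -2.36 in COS replicates 1 to 4 and 0.19, -1.43, 0.01 and -0.46 in CES replicates 1 to 4. CES replicate 2 lay below COS replicate 3, and the other CES rats were above all COS rats. The mean went from -1.77 ± 0.60 to -0.42 ± 0.72 (SD, n = 4 each) (difference 1.35, SE 0.25, limma adjusted p = 0.00569), with 1.45 within Cy3 and 1.25 within Cy5. The spot was marked well above background in both Cy5 COS rats, in neither Cy3 COS rat and in all 4 CES rats, so the COS level and the difference within Cy3 are uncertain, with net signals of 97.5 to 141 and 206 to 360 intensity units. Under normexp background correction the difference was 0.55 (adjusted p = 0.525), and under loess it was 0.78 and still called (adjusted p = 0.0175).

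A second Grm6 probe, designed on a partial truncated transcript (chr10:36429676-36429735), was not well above background in any of the 8 rats. Its net signal was 16.7 to 45.1 in COS and 23.2 to 50.5 in CES, and no fold is given for it. Of the 6 marker genes listed for cerebellum, retina or thalamus 3 were quantified, with 0 called higher and 1 lower.

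Grm4, a presynaptic receptor best known from cerebellar parallel fibers, read 1.33, 1.42, 1.54 and 0.81 in COS replicates 1 to 4. In CES replicates 1 to 4 it read 0.76, 0.78, 1.02 and 0.73. COS replicate 4 lay inside the CES range and the other COS rats above it. The difference was -0.45 (SE 0.18, limma adjusted p = 0.0794), and -0.20 once the all-gene median was subtracted, from the probe at chr20:5627935-5627994. It was between -0.06 and -0.04 under loess, quantiles, scaling on the spots that all rats share (all-rat scaling) and in the deposited log2 table. Without COS replicate 4, CES replicate 3 or CES replicate 4 it was called lower (adjusted p = 0.0471, 0.0453 and 0.0480).

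Grm7, the low-affinity receptor of the presynaptic release site, had 2 probes that gave different answers. Averaged over both, it stood at 1.01 ± 0.38 in oil and 0.43 ± 0.22 in estradiol rats (SD, n = 4 each), a difference of -0.58 (SE 0.21, limma adjusted p = 0.0518) that was called lower without COS replicate 4 or CES replicate 2 (adjusted p = 0.0395 and 0.0207). It was -0.21 to -0.14 under loess, quantile and all-rat scaling and in the deposited table (adjusted p = 0.397 to 0.455). The first Grm7 probe read 0.61, 0.81, 1.67 and 0.75 in COS replicates 1 to 4. It read 1.10, 1.05, 0.55 and 0.39 in CES replicates 1 to 4. The groups overlapped in part, COS replicate 3 lying above all CES rats and CES replicates 3 and 4 below all COS rats, with a difference of -0.19 (SE 0.26, adjusted p = 0.609) whose sign turned to 0.16, 0.21 and 0.21 under loess, quantile and all-rat scaling.

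The Grm7b probe, which the files assign to subtype 7b, was the 1 probe of the family called lower in CES. It read 1.27, 1.36, 1.16 and 0.22 in COS replicates 1 to 4. It read -0.19, -0.12, 0.26 and -0.22 in CES replicates 1 to 4, so COS replicate 4 lay inside the CES range and the other COS rats well above it. The mean fell from 1.00 ± 0.53 to -0.07 ± 0.22 (SD, n = 4), a 2.10-fold higher level in COS (difference -1.07, SE 0.25, limma adjusted p = 0.0105), with -1.18 within Cy3 and -0.95 within Cy5. The call was lost without COS replicate 3 or CES replicate 1 (adjusted p = 0.0701 and 0.0515), under all-rat scaling (difference -0.67, adjusted p = 0.0524), under normexp (-0.67, adjusted p = 0.345) and with the unequal-variance test of the methods (adjusted p = 0.110). Loess kept the call at a smaller difference of -0.48 (adjusted p = 0.0482), as did quantile normalization (-0.68, adjusted p = 0.0443).

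The ratio of the Grm7 to the Grm7b probe followed the arrays as well as the groups. It was -0.66 and -0.55 in the pair of COS rats on one array and 0.51 and 0.54 in the pair on the other. In CES it was 1.29 and 1.17 on one array and 0.29 and 0.61 on the other. The mean ratio was higher by 0.88 in CES, but the groups overlapped (exact permutation p = 0.114, adjusted over the 4 receptors 0.229). The 2 rats of an array lay closer to each other than to the other pair of their group, and because an array holds 1 group its part in this ratio cannot be told apart from that of the rats.

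Grm8, the high-affinity presynaptic receptor of the perforant path, also split by probe. Averaged over both probes it was -1.27 ± 0.61 in oil and -1.34 ± 0.58 in estradiol rats (SD, n = 4 each), a difference of -0.08 (SE 0.26, limma adjusted p = 0.844) that was positive under loess, quantile and all-rat scaling and in the deposited table. The first Grm8 probe differed by 0.41 (SE 0.27, adjusted p = 0.263) and the Grm8b probe by -0.71 (SE 0.26, adjusted p = 0.0611). Both were dim, and the first was well above background in 3 rats of each group, the Grm8b probe in 3 COS and 2 CES rats. The first probe was called higher without CES replicate 1 (difference 0.73, adjusted p = 0.0387), and the Grm8b probe was called lower without CES replicate 2, 3 or 4 (adjusted p = 0.0223, 0.0195 and 0.0218).

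The ratio of the first Grm8 probe to the Grm8b probe separated the groups. It was -0.17, -0.15, -0.25 and -0.39 in COS replicates 1 to 4 and 0.99, 0.48, 1.42 and 0.62 in CES replicates 1 to 4. All CES rats were above all COS rats, in both dyes (1.41 within Cy3 and 0.82 within Cy5). The share of probe pairs of other genes whose ratios do not overlap was not computed. For levels of single genes it was 21.4%, in either direction. Each array holds 1 group, so no array compares the groups, and the permutation test takes no account of the array. The ratio was higher in CES by 1.12 on the log2 scale (exact permutation p = 0.0286, the smallest possible, and 0.114 adjusted over the 4 receptors). In the CES rats with the highest ratios, replicates 1 and 3, the Grm8b probe was not well above background, nor was the first probe in CES replicate 1. In COS replicate 3 neither probe was well above background. The size of the change is therefore uncertain. It did not pass the correction, and the comparison of probe ratios was added after the values of the probes had been seen. The change was 1.29 with the scanner software's processed signal, 1.14 with the median signal, and 0.94 to 1.25 leaving out each rat in turn.

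**Figure D2:**
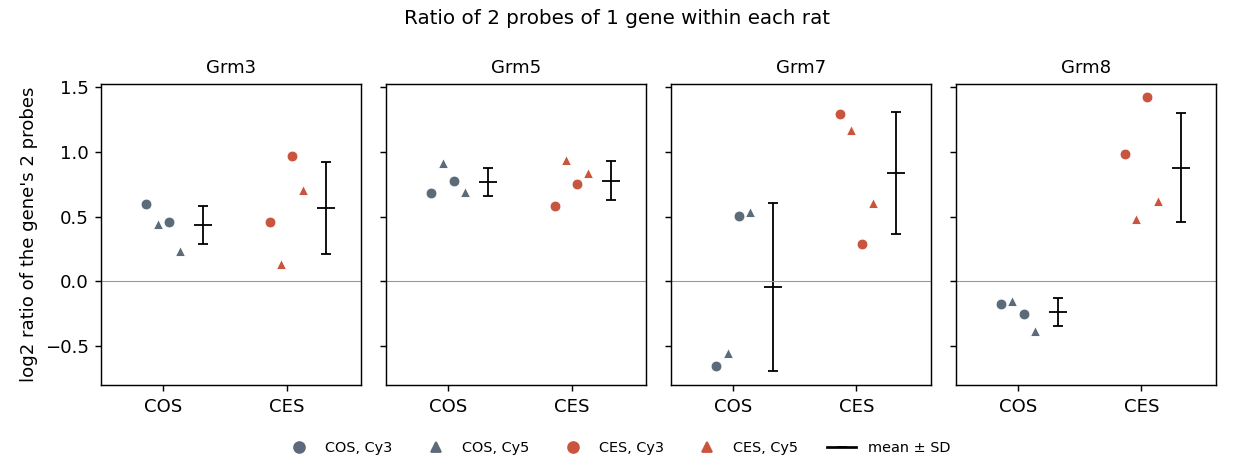
Each panel plots, per rat, the log2 ratio of the 2 probes of 1 receptor (y axis; for Grm7 and Grm8, the first probe over the splice-form probe), with circles for Cy3, triangles for Cy5 and the mean with its SD. The ratios of Grm3 and Grm5 overlap between COS and CES, those of Grm7 form pairs by array, and those of Grm8 lie below 0 in all 4 COS rats and above 0 in all 4 CES rats.

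Ratios between 2 receptors in the same rat are free of any constant factor of the channel, though not of loess or quantile normalization, and they were compared for all 21 pairs. In 9 pairs the groups did not overlap, each with an exact permutation p of 0.0286, and 0 pairs passed after adjustment (smallest adjusted p 0.0667). These 9 pairs set a called receptor (Grm3, Grm5 or Grm6) against one not called (Grm2, Grm4, Grm7 or Grm8). They come from the same values as the calls, so they are not a result apart from them. The share of such pairs among all genes was not computed. In the main processing the widest change was in the ratio of Grm6 to Grm7, which was higher in CES by 1.93, beside 1.80 for Grm6 to Grm4, 1.79 for Grm3 to Grm7 and 1.67 for Grm3 to Grm4. Under normexp that order turned, with 0.93 for Grm6 to Grm7 against 1.62 for Grm3 to Grm7 and 1.52 for Grm3 to Grm4. Ratios among the 3 called receptors differed by 0.14 to 0.38 in size, and the ratio of Grm4 to Grm7 by 0.13, all with overlapping groups.

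**Figure D3:**
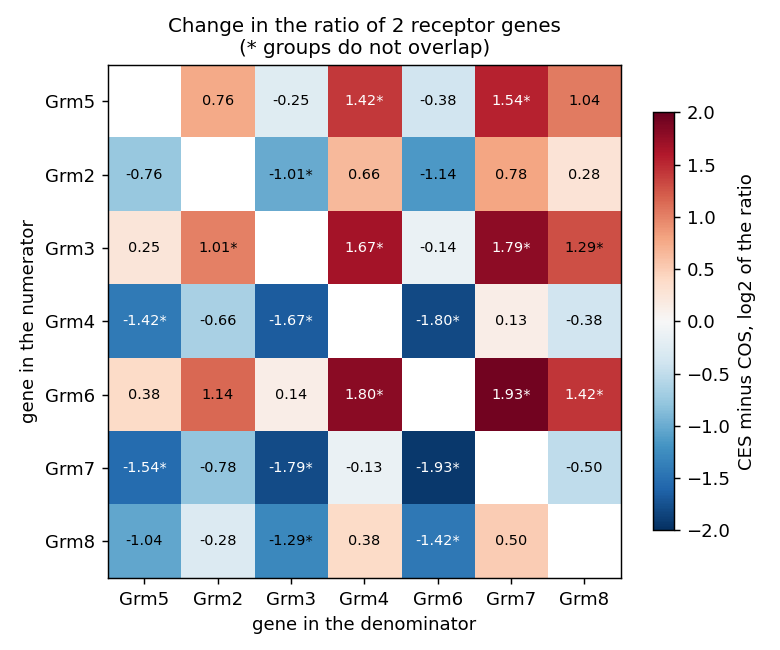
The matrix gives the difference between CES and COS in the log2 ratio of 2 receptors within a rat, with the gene in the numerator on the y axis, the gene in the denominator on the x axis, colour from -2 to 2 and a star where the groups do not overlap. Grm3, Grm5 and Grm6 are higher in CES against Grm4 and Grm7 in every rat, and their ratios to one another stay within 0.38 of no change.

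The difference of each receptor was recomputed under every alternative. Measured from the all-gene median, Grm3 stood 1.27 to 1.66 higher in CES, Grm5 0.75 to 1.49 and Grm6 0.70 to 2.00. Grm4 stood between -0.26 and -0.08 and Grm2 between 0.27 and 0.60. Grm7 ran from -0.43 to 0.07 and Grm8 from 0.01 to 0.68, so the direction of Grm7 against all genes turned when the brightest probe alone stood for the gene.

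**Figure D4:**
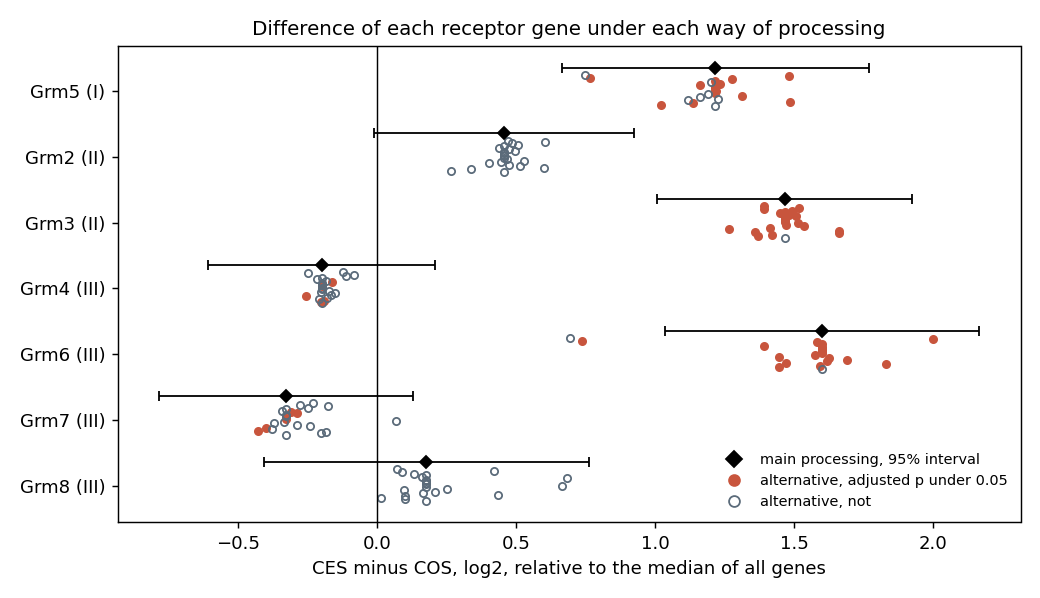
The plot gives the CES minus COS difference of each receptor (x axis, log2, measured from the all-gene median) under the main processing, as a diamond with its 95% interval, and under each alternative, as filled circles where the adjusted p was under 0.05 and open circles where it was not; the vertical line marks the median of all genes. Grm3, Grm5 and Grm6 lie right of the line under every setting, and the filled circles of Grm4 and Grm7 lie left of it.

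Genes whose levels over the 8 rats were most like those of the called receptors were sought among 12446 genes well above background in every rat, as the smallest root mean square difference after centring each dye. For Grm3 these were Fam107a, Aldh1l1, Padi2, Kcnd2 and Omg, at 0.14 to 0.15 log2 units. For Grm5 they were Chn1, Gpld1, Tmem14a, Sorl1 and 1 unnamed transcript, at 0.08 to 0.09. The 5 genes nearest to Grm6 were transcripts without a gene symbol, at 0.10 to 0.15. The second nearest, TC624400, is described as partly similar to mouse ICAM-5. The group difference was left in, so genes near a called receptor share its rise. Aldh1l1 is also among the astrocyte markers, and Chn1, chimaerin, is a Rac-regulating protein that binds diacylglycerol.

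Downstream of group I receptors, Gq activates phospholipase C beta, IP3 receptors and protein kinase C. Of 16 quantified genes of this coupling list, 4 were called higher, among them Plcb1, Itpr1 and Trpc4, and 1 lower (Plcb3), with a median difference of 0.18 against -0.25 for all genes. Trpc4, a cation channel opened downstream of Gq, went from 2.66 ± 0.47 to 3.78 ± 0.38 (SD, n = 4; difference 1.11, limma adjusted p = 0.00834). Plcb3 differed by -1.02 (adjusted p = 0.0136) on spots that were not well above background in every rat. Itpr1, the neuronal IP3 receptor, and Plcb1 rose by 0.95 and 0.85. Calls in this list ranged from 0 to 8 higher and 0 to 2 lower over the alternatives. These counts and those of the lists that follow stand beside 5.80% of all genes called higher and 28.3% lower. Differences of single genes in these lists are those of the main processing and are not measured from the all-gene median of -0.25.

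Homer and Shank proteins tie group I receptors to the postsynaptic density. Of 17 quantified scaffold and binding partners, 1 was called higher (Shank3) and 3 lower (Arc, Homer3 and Pick1), with a median difference of -0.04 (0 to 5 higher and 0 to 3 lower over the alternatives). Arc, an activity-induced gene that regulates AMPA receptor traffic, fell by 1.28 (limma adjusted p = 0.0126). Homer1 differed by -0.18 (adjusted p = 0.401). Shank3, a scaffold that binds Homer, was higher by 0.96, and Pick1, which binds Grm7, fell by 0.51 (adjusted p = 0.0367).

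Group II and III receptors signal through Gi/o to adenylyl cyclases, GIRK potassium channels and presynaptic calcium channels. Of 17 quantified genes, 3 were called higher (Kcnj6, Cacna1b and Cacna1a) and 2 lower (Gnai3 and Gnai2), with a median difference of 0.23. Over the alternatives 0 to 9 were called higher and 0 to 2 lower, and the spots of Cacna1a were not well above background in every rat. Kcnj6, a GIRK subunit, rose by 1.24 (limma adjusted p = 0.00577) and Cacna1b, the N-type calcium channel that these receptors inhibit at terminals, by 1.08 (adjusted p = 0.00518). The G protein subunits Gnai3 and Gnai2 fell by 0.86 and 0.78.

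Kinases and RGS proteins end the signal of the receptors, and Elfn proteins bind group III receptors across the synapse. Of 13 quantified genes of this list, 2 were called higher (Adrbk2 and Gprasp1) and 5 lower, with a median difference of -0.41, against -0.25 for all genes. Over the alternatives 0 to 3 were called higher and 0 to 7 lower, and the spots of Adrbk2 were not well above background in every rat. Rgs4, a regulator that curbs Gq and Gi signals, fell by 2.18 (limma adjusted p = 0.00834), Rgs2 by 1.45 (adjusted p = 0.00914) and the receptor kinase Grk5 by 1.16 (adjusted p = 0.00485). The other genes called lower were Grk4 and Rgs7, by 0.89 and 0.67.

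**Figure D5:**
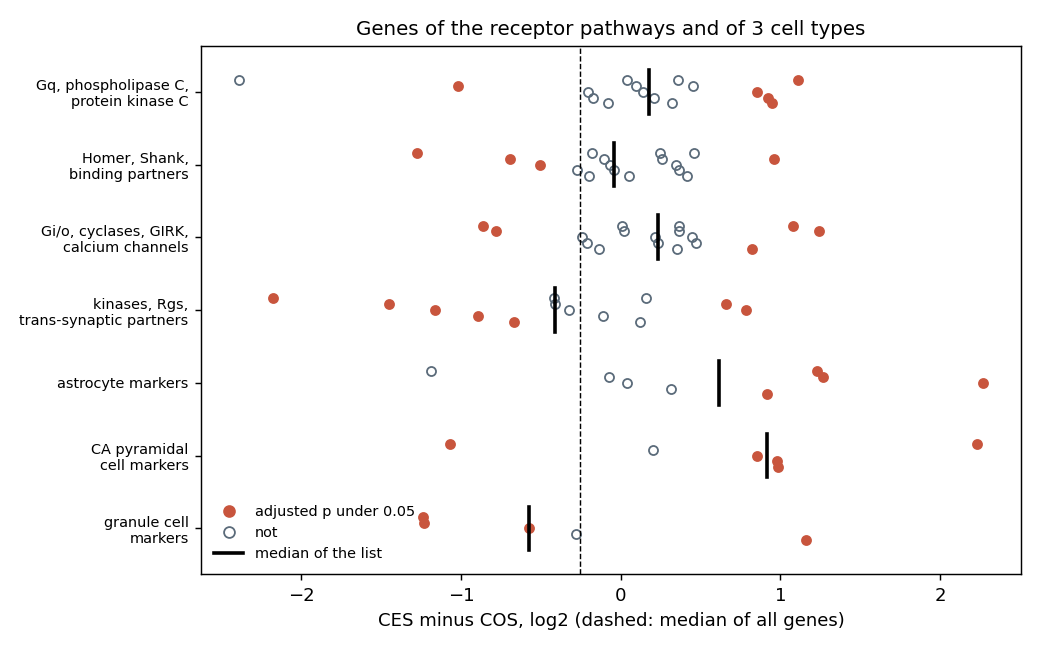
Each point is 1 quantified gene of a receptor pathway list or of a marker list (y axis), placed by its CES minus COS difference (x axis, log2), filled where the limma adjusted p was under 0.05; the black bar is the list's median and the dashed line the median of all genes, -0.25. The medians of the list of Rgs proteins and kinases and of granule cell markers lie left of the dashed line, and those of the other lists plotted lie right of it.

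Markers of hippocampal cell types are given beside these differences, again against 5.80% of all genes called higher and 28.3% lower. Counts and medians of all marker lists, also those given above, are from the main processing. They were not recounted under the alternatives, where the calls over all genes shifted with the scaling. Of 6 quantified markers of CA pyramidal cells, which border the dentate gyrus and express Grm5, 4 were called higher in CES (Pou3f1, Fibcd1, Wfs1 and Nptx1) and 1 lower (Spink8), with a median difference of 0.92 and a summed level of 4.85 to 5.74 in COS and 5.56 to 6.43 in CES. Of 5 quantified granule cell markers, 1 was called higher (Neurod1) and 3 lower (Dsp, C1ql2 and Tdo2), with a median of -0.57 and a summed level of 4.02 to 4.88 in COS and 4.23 to 4.65 in CES. Of 6 interneuron markers 0 were called higher and 2 lower (Sst and Vip). The summed level of all 6 was 7.68 to 8.45 in COS and 6.41 to 7.42 in CES. Sst, the brightest of them with a mean of 7.51 in COS, weighs most in that sum and differed by -1.56. Gad1, Gad2 and Slc32a1 differed by -0.57, -0.58 and -0.33 and were not called (limma adjusted p = 0.0603, 0.0956 and 0.296). Pvalb differed by 0.51 (limma adjusted p = 0.0724). Of 6 oligodendrocyte and 5 quantified choroid plexus markers 0 were called in either direction, of 6 microglial markers 1 was called higher and 2 lower, and of 5 quantified endothelial markers 0 higher and 3 lower. Among the called markers, the spots of Dsp, Tdo2, Fibcd1 and Spink8, and of Flt1 and Tek of the endothelial list, were not well above background in every rat. The part of tissue composition in the differences of Grm5, Grm6 and Grm7 was not tested.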

How the data were processed

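Total RNA of each rat was hybridized to a channel of a 2-colour Agilent array. The deposited scanner files give spot and local background intensity per channel (Agilent Feature Extraction 10.7.3.1, per the labels; rn4). A log2 table deposited by the authors has each column equal to log2 of median signal minus background median plus a constant, centred on a median of 0.

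Here the mean signal minus background median was used. Spots with a foreground at least 2 times background were divided by the median of such spots in their channel, spots valid in all 8 rats were averaged per gene name, and log2 was taken. Valid spots numbered 30690 to 38553 per channel and none was saturated, and the number of arrays limits precision (median SE 0.20). The groups were compared in limma 3.58.1 (R 4.3.3, statmod 1.5.0), with dye as a fixed term, array as a random block and Benjamini-Hochberg adjustment over all genes, tested on simulated data. Ratios within rats were compared by exact two-sided permutation tests (scipy 1.17.1). These tests exchange single rats and take no account of the arrays, so rats that share an array count as independent. The sources do not give the rats' litters or cages. P-values rest on the spread between these 8 rats, and as each array holds 1 group, spread between arrays is part of it. In limma the dye is fitted and the variance of each gene is drawn toward that of all genes. Its SE was 0.25 for Grm6 and 0.25 for Grm5, against 0.47 and 0.42 in the unequal-variance test. Of the receptors Grm4 alone went the other way (0.18 against 0.17). The within-array correlation fitted by limma was -0.0064, so rats of an array counted as nearly independent. It was 0.57 under normexp and 0.26 in the deposited table. All arrays lie on 1 slide, so a slide block was not applicable.

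The members, gene lists, tests and alternatives were chosen with earlier results of these data known, and marker and partner lists came from general knowledge. Named genes are all members, the 5 genes most like each called member, and called partner genes with a difference over 1 in size, at most 3 a list. Further partners and markers are named after their values were seen. The methods' t-test, with unequal variances, was an alternative, as were the background correction, scaling, filter, probe choice, dye, block and each rat left out. A few genes of the lists are not reported here by name.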

Additional observations from a re-analysis of the deposited data

Results flagged for a closer look

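Within groups of 4 rats, 32 sets of levels of receptor genes and probes were checked for a rat far from the other three by Dixon's test, which chance passes in about 1 of 20 groups, and 2 were marked. Both concern CES replicate 3. Its Grm4 level was 1.02, against 0.73 to 0.78 in the other CES rats, which brought it nearest to the COS rats. Its level at the first Grm8 probe was 0.055, against -1.41 to -1.25 in the other CES rats, while its Grm8b probe (-1.37) was the highest of the CES rats by a smaller margin.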

How the results depend on the processing

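The members called higher numbered 3, and 1 with normexp or among spots well above background in every rat, 0 by the methods' t-test and 2 to 3 leaving out each rat. The members called lower numbered 0, and 1 with the stricter foreground (at least 3 times background), with the replicate block in place of the dye term or with each probe fitted on its own, 2 among spots well above background or with no dye term, and 0 to 2 leaving out each rat. Over all genes, the counts called higher and lower (1238 and 6038) became 125 and 461 with normexp, 3323 and 2225 with loess, 3078 and 2250 with quantiles, 3348 and 1718 with scaling over spots valid in all rats, 462 and 3013 with no filter, 3275 and 1927 in the deposited table and 0 and 0 by the methods' t-test, where 6103 passed unadjusted. Leaving out each rat gave 257 to 1855 and 914 to 7012, lowest without COS replicate 3. Scaling over spots valid in all rats changes only which spots give the channel median. It moved the difference of every gene by the same amount, the all-gene median going from -0.25 to 0.15. The cause of the other shifts was not tested. The replicate block gave 1076 and 6131 genes and a Grm7 adjusted p of 0.0421. Same-numbered rats share a dye, and once the dye was removed their deviations correlated at -0.28 to 0.08, so the numbers do not pair the rats.

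Directions turned as follows. Grm8 (main -0.08) was 0.13 with the processed signal and with loess, 0.19 with quantiles, 0.32 with scaling over spots valid in all rats, 0.41 with the stricter foreground or the brightest probe, 0.30 in the deposited table and -0.29 to 0.23 leaving out each rat. Grm2 was -0.010 to 0.33 leaving out each rat. The first Grm7 probe was 0.16 with loess, 0.21 with quantiles and with scaling over spots valid in all rats, and -0.37 to 0.048 leaving out each rat. The ratio of Grm3 to Grm6 was 0.70 with normexp and 0.057 with no filter, and that of Grm5 to Grm6 0.053 with normexp. The probe ratio of Grm3 was -0.00042 to 0.28 leaving out each rat. That of Grm5 was -0.057 with the processed signal, -0.014 with the median signal and -0.042 to 0.077 leaving out each rat. Grm6 could not be fitted with the stricter foreground or among spots well above background in all rats, and Grm5 not among the latter. Dim spots of Grm5, Grm6 and Grm8 limit what these arrays can show.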
